A study of Mus musculus with 6 samples.

Results

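Slc5a6, Atraid and Cad lie side by side on mouse chromosome 5 and all 3 gave more tags by cap analysis of gene expression (CAGE) in mOPCs than in mESCs. CAGE sequences a short tag from the 5′ end of capped RNA, so that each tag marks where an RNA molecule began. The number of tags does not grow with the length of the transcript, although PCR can give several tags from the same molecule. The genes are 3 of 21951 annotated protein-coding genes and were chosen because their tag counts differed between these same libraries. Their differences between the cell types are therefore described here without a test. Every position with a tag on either strand was taken from the start of Slc5a6 to the end of Cad, with 10000 bp added on each side. This gave 11085 positions over the 6 libraries, with 338 to 549 in a single mESC library and 4854 to 7035 in a single mOPC library.

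The mESC group comprised 3 libraries of nuclear RNA from R08, an untreated mouse embryonic stem cell line kept without feeder cells in serum and leukemia inhibitory factor. The mOPC group comprised 3 libraries of nuclear RNA from oli-neu, an immortalized line that stands for mouse oligodendrocyte progenitor cells, expanded in a proliferation medium with thyroid hormones, basic fibroblast growth factor and platelet-derived growth factor-BB. Each group is a single line, and the labels do not say that the libraries of a group came from separate cultures, so that p-values measure only the spread between these libraries. Libraries held between 16657021 and 40928704 tags. The 3 libraries of a line share 1 library label in the deposited tables, and the label differs between the lines, so that library preparation and cell type cannot be told apart. In bulk RNA, a higher level per cell and a larger share of cells that use a start cannot be told apart either. The stem cell markers Pou5f1, Nanog, Zfp42, Esrrb, Tdgf1 and Utf1 summed to between 2220 and 2388 CPM in mESCs (tags scaled to a library total of 1000000) and to between 0.365 and 0.489 in mOPCs. The 6 oligodendrocyte progenitor markers summed to between 7.42 and 8.22 CPM in mESCs and between 1383 and 1488 in mOPCs, although Nkx2-2 reached a mean of only 0.633 and Pdgfra of 13.05 there. Of the other lists, the mature oligodendrocyte markers Mbp, Mog and Mag summed to between 210.3 and 241 CPM in mOPCs against 3.42 to 4.29 in mESCs. The neuronal list summed to between 122 and 151 in mOPCs against 10.5 to 11.0 in mESCs, and nearly all of the mOPC sum was Syt1. Snap25 and Rbfox3 of that list were lower in mOPCs, with means of 0.0557 and 0.456 CPM against 1.94 and 4.61 in mESCs. The astrocyte list summed to at most 0.867 in mOPCs, against 9.37 to 11.3 in mESCs. The fibroblast list summed to at most 12.2 in mOPCs, against 1.79 to 2.03 in mESCs, and Col1a1 made up most of it in both lines. Col1a2 of that list had 10 tags over the mESC libraries and 0 over the mOPC libraries. The microglial list summed to at most 42.2 in mOPCs and to between 39.5 and 41.9 in mESCs, and Cx3cr1 made up nearly all of it in both lines. The part of these cell types in the values below was not tested.

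Slc5a6 encodes the sodium-dependent multivitamin transporter of the plasma membrane, which imports biotin, pantothenate and lipoate. Biotin is the cofactor of the mitochondrial and cytosolic carboxylases, pantothenate is the precursor of coenzyme A, and lipoate is the swinging arm of the mitochondrial dehydrogenase complexes. Atraid encodes a membrane glycoprotein that was first described as a product of a gene induced by all-trans retinoic acid and that partners the transporter encoded by Slc37a3 in lysosomes. Cad encodes the enzyme that carries out the opening steps of de novo pyrimidine synthesis, as carbamoyl-phosphate synthetase, aspartate transcarbamylase and dihydroorotase in a single chain. On the mm10 genome with GENCODE vM21, Slc5a6 runs leftwards on the minus strand (31036036 to 31048924), Atraid rightwards on the plus strand (31048312 to 31054623) and Cad rightwards behind it (31054780 to 31078479). Slc5a6 and Atraid are thus transcribed away from each other from overlapping 5′ regions, whereas Cad begins 157 bp after the last base of Atraid.

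The promoter sequences of the 3 genes are shown because the starts described below lie in them. They are the 4 windows that RefSeq annotation of GRCm38.p6 gives for these genes, read 5′ to 3′ on the strand of the gene. The capital is the main start, as deposited and in mOPCs, of a cluster of starts named below. In the second Slc5a6 window it is that of the intermediate cluster, at 31048221, whose main start in mESCs was 31048226. That window also holds part of the proximal Slc5a6 cluster, whose main start lies outside it. The first Slc5a6 window is chr5:31048513-31048812 on the minus strand, the second chr5:31048030-31048329 on the minus strand, the Atraid window chr5:31048390-31048689 on the plus strand and the Cad window chr5:31054530-31054829 on the plus strand.
Slc5a6, RefSeq start 1: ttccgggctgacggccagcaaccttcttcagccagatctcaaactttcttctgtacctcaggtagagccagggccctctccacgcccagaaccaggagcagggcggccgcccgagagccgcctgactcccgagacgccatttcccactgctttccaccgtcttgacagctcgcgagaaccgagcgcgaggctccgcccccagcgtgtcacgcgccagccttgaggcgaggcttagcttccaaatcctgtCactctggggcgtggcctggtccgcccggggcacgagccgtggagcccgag
Slc5a6, RefSeq start 2: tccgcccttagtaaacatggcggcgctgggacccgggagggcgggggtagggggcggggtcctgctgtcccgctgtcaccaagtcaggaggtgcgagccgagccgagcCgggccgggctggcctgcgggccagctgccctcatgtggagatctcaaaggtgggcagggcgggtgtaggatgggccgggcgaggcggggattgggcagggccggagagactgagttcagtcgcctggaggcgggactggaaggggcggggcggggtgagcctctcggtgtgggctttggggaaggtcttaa
Atraid: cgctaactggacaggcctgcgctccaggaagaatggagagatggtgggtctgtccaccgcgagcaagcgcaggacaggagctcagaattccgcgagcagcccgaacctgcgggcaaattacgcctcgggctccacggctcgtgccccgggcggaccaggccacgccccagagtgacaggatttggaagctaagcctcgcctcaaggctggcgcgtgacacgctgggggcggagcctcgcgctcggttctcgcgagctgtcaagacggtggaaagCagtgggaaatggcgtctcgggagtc
Cad: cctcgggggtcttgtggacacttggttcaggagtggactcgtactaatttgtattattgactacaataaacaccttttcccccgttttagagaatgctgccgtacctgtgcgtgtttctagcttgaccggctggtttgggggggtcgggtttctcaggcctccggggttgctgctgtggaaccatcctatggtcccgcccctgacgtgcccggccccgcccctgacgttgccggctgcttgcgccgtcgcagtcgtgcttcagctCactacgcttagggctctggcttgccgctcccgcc
The strongest start of the locus, that of Slc5a6, lies outside these windows, and its 30 bases on the minus strand (chr5:31048003-31048032) were read from a GENCODE transcript that covers it. The capitals mark an A- and T-rich element and, as the last base, the main start.
Slc5a6 main start: TAAATActagtgcaaagtcgtgggttcgcC
The first Slc5a6 window and the Atraid window overlap over 177 bp, where they hold the same DNA read from opposite strands. GC content was 66.0% and 70.3% in the Slc5a6 windows, 65.3% in the Atraid window and 59.7% in the Cad window, where the median of 21263 windows of protein-coding genes was 56.3%.

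The GC box GGGCGG, the binding motif of Sp1-type factors, matched 4 times in the first Slc5a6 window, 6 times in the second, 2 times in the Atraid window and 2 times in the Cad window, counting both strands. At least 1 match stood in 46.2% of all promoter windows. Both matches of the Atraid window are also matches of the first Slc5a6 window. CCAAT matched once, in the second Slc5a6 window (38.2% of all windows), whereas the E-box CACGTG (7.84%) and TATAAA (12.6%) matched in none of the 4. The element TAAATA begins 29 bases and ends 24 bases upstream of the Slc5a6 main start. It was picked out after the sequence had been seen. TAAATA lies between 35 and 20 bases upstream of the annotated start in 0.616% of the 21263 windows, as TATAAA does in 2.25%. These shares are counted from annotated starts and the Slc5a6 distance from the CAGE main start, so that they are not a like comparison. A match describes the letters only, and no binding was measured.

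The deposited main start was a C at Slc5a6, Atraid and Cad alike, and the base that follows each of them on its strand is an A. RNA polymerase II usually begins on a purine that follows a pyrimidine, and reverse transcriptase can add an untemplated base at the cap of a CAGE tag. In 9776 windows with at least 100 tags in mESCs, the main start and the base after it were a pyrimidine and a purine in 87.4%, whereas the base before the main start and the main start itself were so in 1.24%. The shares in 9496 windows in mOPCs were 88.2% and 1.30%. Both strands gave nearly the same values, with 87.5% on the plus and 87.3% on the minus strand in mESCs. This check was added after the bases had been seen, and its cause was not tested. Positions are given below as deposited, and moving them by 1 base in the direction of transcription would change each distance to an annotated end by 1 bp.

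The locus as a whole took up 0.0194% ± 0.0015 of all tags in mESCs (SD, n = 3) and 1.04% ± 0.0783 in mOPCs. Its tags lay mainly at Cad in mESCs and mainly at Slc5a6 in mOPCs. In mESCs, 75.9% ± 1.10 of the tags in the window fell within 500 bp of an annotated coding 5′ end of Cad, 14.7% ± 1.14 within that distance for Atraid and 5.07% ± 0.490 for Slc5a6 (SD, n = 3). In mOPCs the shares were 8.96% ± 0.542 for Cad, 10.4% ± 0.747 for Atraid and 76.8% ± 0.976 for Slc5a6. The order of the 3 genes by tags was thus Cad, Atraid, Slc5a6 in every mESC library and Slc5a6, Atraid, Cad in every mOPC library.

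Over the gene body, Slc5a6 had 392, 179 and 157 tags in the mESC libraries, against 198641, 219996 and 325987 tags in the mOPC libraries. Scaled to the library total this is 9.87 ± 1.19 CPM in mESCs and 8218 ± 748 in mOPCs (SD, n = 3), an 833-fold difference. The groups lie far apart, and Slc5a6 ranked first of all protein-coding genes by tags in each mOPC library, where it ranked between 8775 and 9408 in the mESC libraries. The fitted log2 fold change was 9.57 (SE 0.121), and 82 of 14840 protein-coding genes tested had a larger one.

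Atraid had 1088, 468 and 534 tags in the mESC libraries, against 23524, 30780 and 41440 in the mOPC libraries. This is 28.6 ± 0.453 CPM in mESCs and 1051 ± 33.4 in mOPCs (SD, n = 3), a 36.7-fold difference. No library of one line came near the other, and Atraid ranked between 20 and 22 by tags in mOPCs and between 5713 and 5788 in mESCs. The fitted log2 fold change was 5.07 (SE 0.0953), with 682 larger values among protein-coding genes.

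Cad had 5972, 2310 and 2424 tags in the mESC libraries, against 20834, 25547 and 39160 in the mOPC libraries. This is 143 ± 13.5 CPM in mESCs and 931 ± 39.2 in mOPCs (SD, n = 3), a 6.53-fold difference. Cad was the strongest of the 3 genes in mESCs, at ranks between 1009 and 1325, and stood at ranks between 25 and 30 in mOPCs. Its fitted log2 fold change was 2.58 (SE 0.0863), and 1836 protein-coding genes had a larger one. For all 3 genes every mOPC library lay above every mESC library, as it did for 47.0% of all 18290 genes tested. At an adjusted p under 0.05 by edgeR's quasi-likelihood test, 44.6% of these genes were higher and 46.0% lower in mOPCs, so that most genes were called and being called sets no gene apart. Because the 3 genes were chosen on this contrast, nothing is read from their counts.

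**Figure D1:**
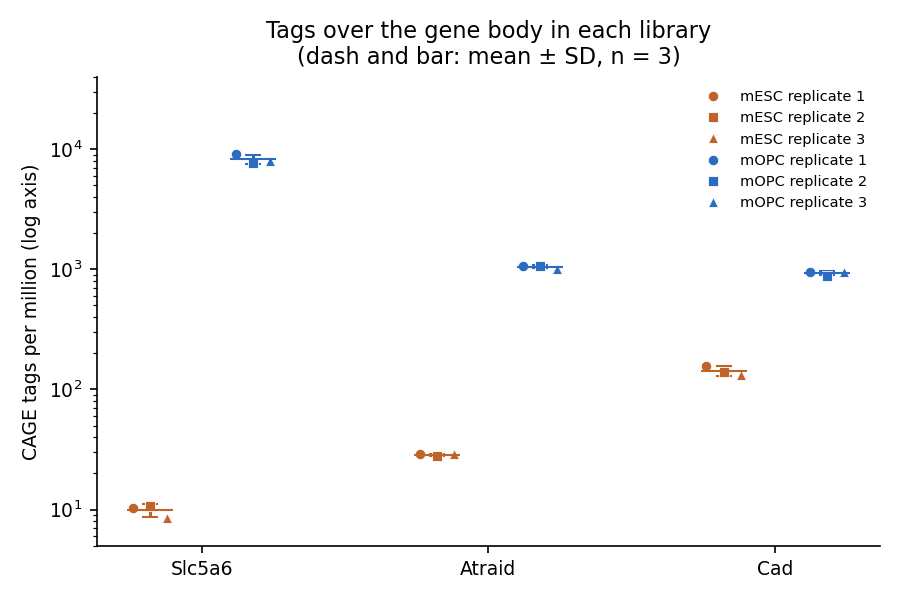
CAGE signal in CPM over the gene body of Slc5a6, Atraid and Cad (log axis) in 3 mESC and 3 mOPC libraries. Each symbol is 1 library, and dashes and bars give the mean ± SD. The order of the genes turns round between the lines, with Cad highest in mESCs at 143 and Slc5a6 highest in mOPCs at 8218 CPM.

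Around the 5′ ends, tags were grouped into clusters of neighbouring positions, each tagged at least 10 times when the 6 libraries were added up, joined up to 20 bp on 1 strand. Within 1000 bp of its main start, Slc5a6 had 4 such clusters with at least 1000 tags in all, here named proximal, intermediate, distal and far upstream by their order against the direction of transcription. The proximal cluster holds the main start, at position 31048003. It lies 1 bp upstream of the 5′ end of the transcript Slc5a6-205, and in the first exon of Slc5a6-206 (6 bp downstream of its 5′ end) and of Slc5a6-203 (76 bp downstream). For the longer transcripts Slc5a6-201 and Slc5a6-202, the same position is intronic.

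The Slc5a6 main start alone was tagged 95, 41 and 32 times in the mESC libraries, against 140235, 154452 and 230175 times in the mOPC libraries. In mOPCs this single base took up 0.579% ± 0.0540 of all tags of the library (SD, n = 3) and was the fourth most tagged position of the genome in each of the 3 libraries. Its rank in the mESC libraries was between 55003 and 76978. On the log2 scale the ratio of mean CPM was 11.3 (SE 0.189), larger than the 10.0 (SE 0.1) of the whole proximal cluster.

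The other Slc5a6 promoters also had more tags in mOPCs, but by smaller factors. The distal cluster, with its main start at 31048563 and 1 bp upstream of the 5′ end of Slc5a6-202, had 58, 21 and 10 tags in mESCs and 1972, 2691 and 3996 in mOPCs, an 84.2-fold difference in CPM. The intermediate cluster, in an exon of Slc5a6-202, had 40, 17 and 10 tags in mESCs and 805, 1055 and 1514 in mOPCs, a 42.1-fold difference. The far upstream cluster, 16 bp inside the first exon of Slc5a6-201, held only 8 tags over the mESC libraries against 1032 over the mOPC libraries. The proximal cluster, with 280, 137 and 129 tags in mESCs and 187651, 208338 and 308016 in mOPCs, differed 1031-fold.

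The mixture of Slc5a6 promoters differed between the lines. Of the tags in the 4 clusters, the proximal one made up 78.8% ± 6.22 in mESCs against 98.2% ± 0.173 in mOPCs (SD, n = 3). The distal share was 11.2% ± 4.30 in mESCs and 1.19% ± 0.136 in mOPCs, and the intermediate share 8.91% ± 2.02 and 0.467% ± 0.0396. The single mESC libraries do not overlap with the mOPC libraries for either share, although the mESC values rest on as few as 10 tags for a cluster.

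**Figure D2:**
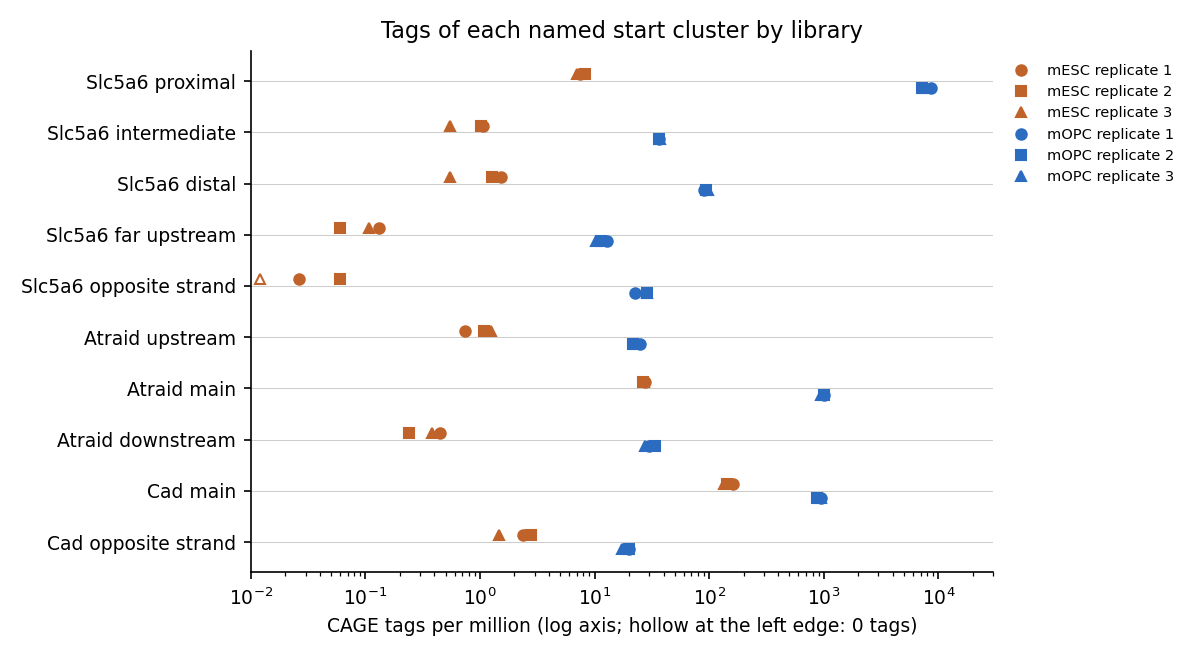
CAGE signal in CPM (log axis) of the 10 named start clusters of the locus, with 1 symbol for each library and hollow symbols at the left edge for 0 tags. In every cluster the 3 mOPC libraries lie above the 3 mESC libraries, by 1031-fold in the mean at the proximal Slc5a6 cluster and by 6.28-fold at the main Cad cluster.

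Within the proximal Slc5a6 cluster, initiation was spread over many bases in mESCs and narrow in mOPCs. The main start held 33.9%, 29.9% and 24.8% of the cluster's 280, 137 and 129 tags in the mESC libraries, and 74.7%, 74.1% and 74.7% of its tags in the mOPC libraries. The central 80% of tags spanned 65, 65 and 68 bp in mESCs and 4 bp in each mOPC library. Over all tags within 500 bp of an annotated 5′ end, the span was between 287 and 561 bp in mESCs and again 4 bp in mOPCs. The next starts also differed. In mESCs the second start lay 62 bp upstream of the main start and held 8.21% ± 1.76 of the tags, whereas in mOPCs it held 0.0593% ± 0.00721 and ranked 36th (SD, n = 3). In mOPCs the second start lay 3 bp upstream of the main start, with 10.4% ± 1.00 of the tags against 2.95% ± 1.24 in mESCs. The start 62 bp upstream was itself tagged 25, 13 and 8 times in mESCs and 96, 135 and 191 times in mOPCs, a 7.32-fold difference in CPM against 2591-fold at the main start.

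At Atraid and Cad, the share of tags at the main start overlapped between the lines. The Atraid main start, at 31048664, was tagged 490, 176 and 228 times in mESCs and 10266, 13904 and 19673 times in mOPCs, which put it between the ranks 21 and 25 of all positions in the mOPC libraries. It lies 5 bp downstream of the 5′ end of Atraid-204 and in the first exon of Atraid-201 and Atraid-207, 29 and 16 bp from their 5′ ends. It held 44.4% ± 3.89 of the cluster's tags in mESCs, against 48.2% ± 2.03 in mOPCs (SD, n = 3). The central 80% of tags spanned between 25 and 27 bp in mESCs and 19 bp in each mOPC library. Over all tags within 500 bp of an annotated 5′ end these spans overlapped, with 30 to 34 bp in mESCs and 25 to 33 bp in mOPCs. The start 3 bp upstream held 7.48% ± 0.450 in mESCs and 13.7% ± 1.09 in mOPCs.

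The Cad main start, at 31054795, lies in the first exon of Cad-201, 15 bp downstream of its 5′ end. It was tagged 2868, 1009 and 1023 times in mESCs and 9318, 10314 and 16290 times in mOPCs. Its share of the cluster was 43.4% ± 3.14 in mESCs and 42.7% ± 2.29 in mOPCs (SD, n = 3), with overlapping ranges. The central 80% spanned 68 bp in each mESC library and 48 bp in each mOPC library, but 69 to 70 bp and 60 to 68 bp over all tags within 500 bp of an annotated 5′ end. The second start was the same in both lines, 5 bp upstream, with 6.36% ± 0.760 of the tags in mESCs against 8.06% ± 1.01 in mOPCs.

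The stretch between Slc5a6 and Atraid gave tags on both strands. The main starts of the 2 genes are 661 bp apart, and their closest annotated coding 5′ ends 73 bp. Within 500 bp of the annotated coding 5′ ends, Slc5a6 had 393, 178 and 155 tags and Atraid 1084, 465 and 529 tags in the mESC libraries. In the mOPC libraries Slc5a6 had 191840, 213453 and 315736 tags and Atraid 23996, 31495 and 42502. Atraid thus led in every mESC library and Slc5a6 in every mOPC library.

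The log2 ratio of Slc5a6 to Atraid was -1.46, -1.38 and -1.76 in the mESC libraries, where Atraid exceeded Slc5a6 2.90-fold on average. In the mOPC libraries it was 3.00, 2.76 and 2.89, where Slc5a6 exceeded Atraid 7.38-fold. The shift from mESCs to mOPCs was 4.42 (SE 0.136), many times the spread between libraries of a line (SD 0.202 in mESCs and 0.119 in mOPCs). The same ratio was computed for all divergent protein-coding pairs whose 5′ ends are at most 1000 bp apart or overlap by up to 200 bp, 988 of which had at least 10 tags on each side in every library. The absolute shift had a median of 1.205 and a 95th percentile of 3.95 over these pairs, and 26 pairs had a larger one than Slc5a6 and Atraid. The leading gene changed in 281 pairs, or 28.4%. A larger ratio in favour of the gene on the minus strand was found in mOPCs for 81 pairs. The pair was chosen for its tags in these libraries, so that its place among the pairs is a description.

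**Figure D3:**
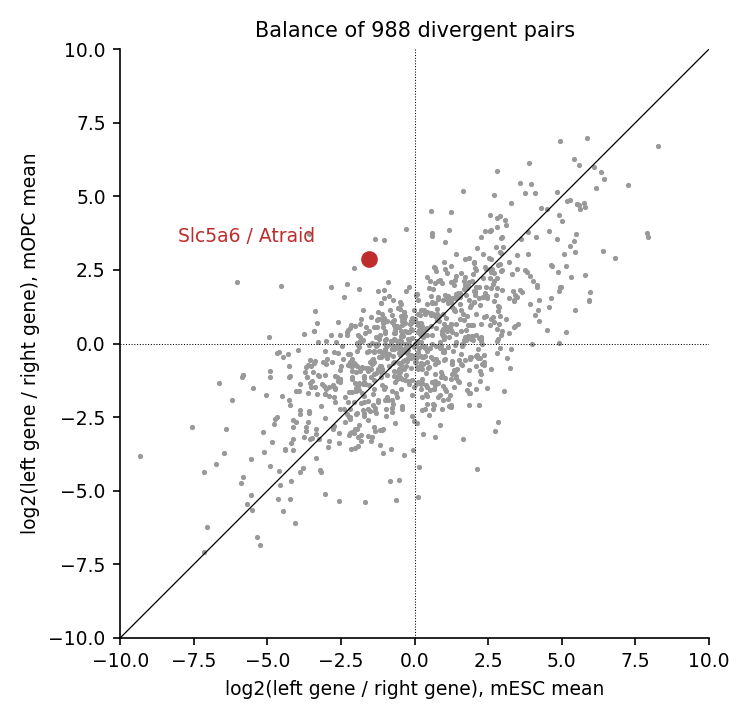
Balance of 988 divergent gene pairs, as log2 of the tags of the gene on the minus strand over those of the gene on the plus strand, averaged over 3 mESC libraries (horizontal) and 3 mOPC libraries (vertical). The diagonal marks an equal balance in both lines, and the pair Slc5a6 and Atraid (red) lies 4.42 above it, with Atraid leading in mESCs and Slc5a6 in mOPCs.

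Further starts appeared between and beside the main ones. On the plus strand, a cluster 128 bp upstream of the first Atraid transcript and opposite to the intermediate Slc5a6 cluster held 1, 1 and 0 tags in mESCs and 490, 828 and 1185 in mOPCs. The next cluster, with its main start 5 bp inside Atraid-206, held 28, 18 and 23 tags in mESCs and 546, 630 and 945 in mOPCs, a 22.8-fold difference in CPM. Another, in the first exon of Atraid-205 and in introns of the other coding transcripts, held 17, 4 and 7 tags in mESCs and 652, 974 and 1137 in mOPCs. All 3 are small beside the main Atraid cluster, which held 1034, 440 and 498 tags in mESCs and 22171, 28930 and 39068 in mOPCs. On the minus strand before Cad, a cluster opposite to its direction held 90, 46 and 27 tags in mESCs and 437, 576 and 717 in mOPCs, an 8.70-fold difference. At the main Cad cluster itself, with 6111, 2373 and 2504 tags in mESCs and 20547, 25136 and 38917 in mOPCs, the difference was 6.28-fold.

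**Figure D4:**
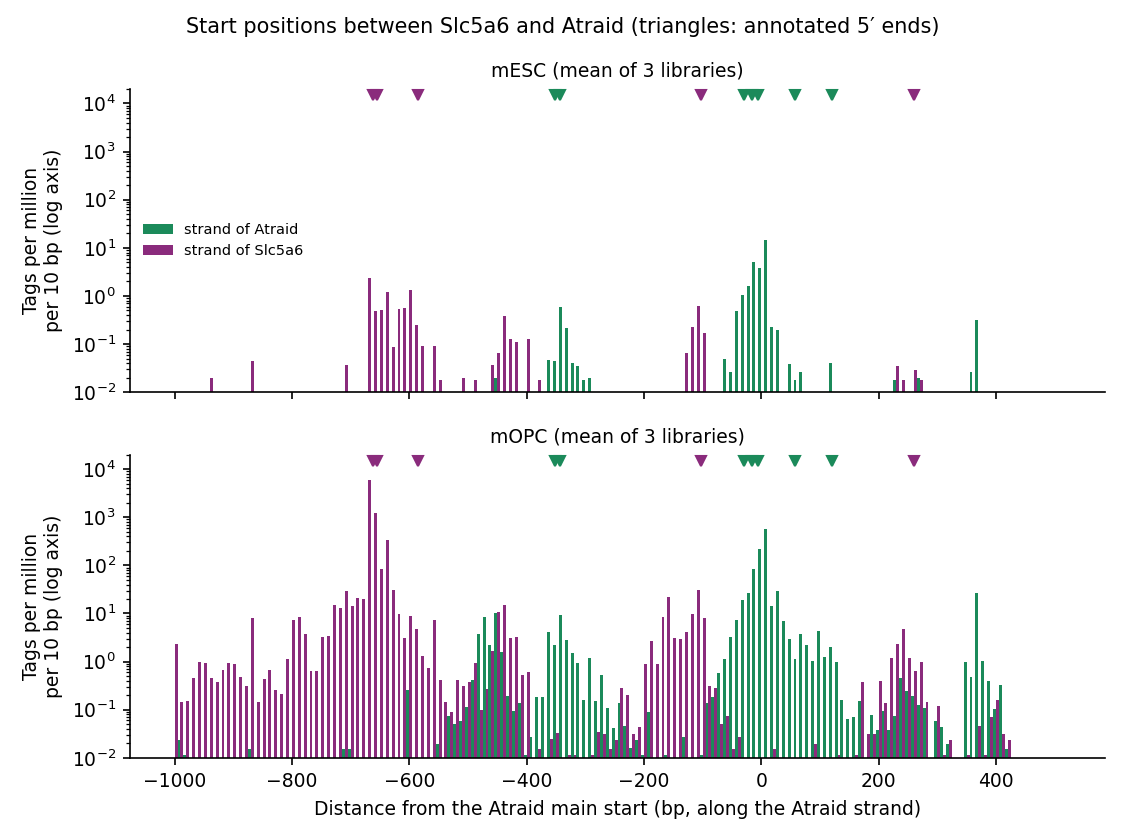
Mean CAGE signal in CPM in bins of 10 bp (log axis) on the strand of Atraid and on the strand of Slc5a6, by distance from the Atraid main start, in mESCs (top) and mOPCs (bottom), with triangles at annotated 5′ ends. The highest peak is that of Atraid in mESCs and that of Slc5a6, 661 bp to its left, in mOPCs, where tags also fill the stretch between the peaks.

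Tags also fell inside the genes, over 500 bp from any annotated coding 5′ end. Slc5a6 had 7, 3 and 6 such tags in the mESC libraries, against 6921, 6663 and 10434 in the mOPC libraries, at 3976 positions in exons and introns. As a share of all Slc5a6 tags this is 2.43% ± 1.21 in mESCs and 3.24% ± 0.230 in mOPCs (SD, n = 3), and the ranges overlap. The largest cluster of these tags held 3951 in mOPCs and none in mESCs, at least 1048-fold more in CPM than 3 tags over the 3 mESC libraries would be. Tags of this kind made up 1.07% ± 0.0563 of the Atraid tags in mESCs and 0.979% ± 0.0876 in mOPCs, again with overlapping ranges. For Cad the shares were 3.28% ± 0.133 in mESCs and 5.40% ± 0.445 in mOPCs, and every mOPC library lay above every mESC library.

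Beyond the 3 genes, the window reaches into Slc30a3, a zinc transporter gene on the minus strand, which had 95, 34 and 59 tags over its body in mESCs and 3, 9 and 12 in mOPCs. The nearest protein-coding genes to the left are Tcf23, with 4 tags over the mESC and 24 over the mOPC libraries, Preb and Cgref1. Preb had 41.4 ± 2.71 CPM in mESCs and 550.1 ± 46.4 in mOPCs, a 13.3-fold difference, whereas Cgref1 had 2.70 ± 0.557 in mESCs and 0.200 ± 0.0858 in mOPCs (SD, n = 3). To the right, Dnajc5g had 1.60 ± 0.371 CPM in mESCs and 0.0465 ± 0.0225 in mOPCs, and Trim54 had 1.15 ± 0.121 and 0.258 ± 0.0264. Ucn had 1 tag over the mESC and 2 over the mOPC libraries. Higher values in mOPCs were therefore not shared by every gene next to the window.

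The genes whose 6 values were most like those of a member, by Euclidean distance of log2(CPM + 0.5), differed in how close they came. For Slc5a6 the nearest was Bcas1, which is known from newly forming oligodendrocytes, with 4.48 ± 0.198 CPM in mESCs and 2805 ± 187 in mOPCs at a distance of 3.25, followed by Anks1b (4.72) and Mpzl1 (5.53). No gene came as close to Slc5a6 as the nearest genes of the other members did. For Atraid they were Mpzl1 (distance 0.506), with 31.4 ± 2.70 and 1230 ± 71.9 CPM, Ankrd28 (0.928) and Ank2 (1.33). For Cad they were Srpk2 (0.613), with 170 ± 15.1 and 891 ± 46.4 CPM, Ppp1cb (0.729) and Tial1 (0.930).

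The other genes of the pathways that the 3 proteins serve were read from the same edgeR fit. They are 48 genes, of which 16 were called higher and 28 lower in mOPCs (adjusted p under 0.05 over all genes tested), beside 44.6% and 46.0% of all genes. Their median log2 fold change was -0.69, and that of all genes tested was -0.03.

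Around Cad, the pyrimidine genes were mostly lower in mOPCs. Of 11 genes besides Cad, 9 fell and 1 rose, beside 46.0% and 44.6% of all genes tested. The median log2 fold change of the 11 genes was -0.95. Dhodh, which oxidizes dihydroorotate in mitochondria after the steps carried out by Cad, had 1841, 737 and 864 tags in mESCs and 344, 446 and 747 in mOPCs and fell by 1.62 on the log2 scale (SE 0.0938, edgeR adjusted p = 6.44e-32). Umps, which completes the synthesis of UMP, fell by 1.45 (SE 0.0849, edgeR adjusted p = 1.3e-31). The nucleoside diphosphate kinases Nme1 and Nme2 fell by 2.77 (SE 0.0926) and 2.52 (SE 0.0957), and the dUTPase gene Dut by 1.71 (SE 0.0892). The uridine-cytidine kinase Uck1 rose by 0.66 (SE 0.0908), and Ctps2, a CTP synthase, was not called at -0.16 (SE 0.0895, edgeR adjusted p = 0.0803). Ctps2 was called lower in 3 of the 13 settings run. Nme1 and Nme2 are neighbouring genes of similar sequence, so that the split of tags between them is uncertain.

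Among genes of the 3 compounds that Slc5a6 imports, those of biotin and coenzyme A moved in both directions and those of lipoate fell. Of the 9 genes of biotin use, 5 rose and 3 fell, beside 44.6% and 46.0% of all genes tested. Biotinidase (Btd), which releases biotin for reuse, rose by 3.45 (SE 0.102, edgeR adjusted p = 5.24e-57), acetyl-CoA carboxylase 1 (Acaca) by 1.60 (SE 0.0824), and Pcca, a propionyl-CoA carboxylase subunit, by 1.13 (SE 0.0874). The ligase Hlcs, which attaches biotin to the carboxylases, rose from a mean of 46.4 CPM in mESCs to 116 in mOPCs (edgeR adjusted p = 5.51e-26). Among the carboxylases, pyruvate carboxylase (Pcx) fell by 3.30 (SE 0.116) and acetyl-CoA carboxylase 2 (Acacb) fell by 3.87 (SE 0.114). The other subunit of propionyl-CoA carboxylase, Pccb, fell by 0.98 (SE 0.137). Mccc2 was not called at 0.12 (SE 0.0883, edgeR adjusted p = 0.172). On total tags, Mccc2 was called higher at 0.25 (edgeR adjusted p = 0.00381). With tags near annotated 5′ ends it was at -0.17 and not called (edgeR adjusted p = 0.0623).

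Of the 7 genes that make coenzyme A from pantothenate, 3 rose and 3 fell, beside 44.6% and 46.0% of all genes tested. Pank4 was higher by 1.04 (SE 0.0918) and Coasy, the bifunctional enzyme of the closing steps, by 0.84 (SE 0.0910). The synthetase Ppcs was lower (log2 fold change -3.01, SE 0.135). The kinase Pank3 was at -0.19 (SE 0.0833, edgeR adjusted p = 0.0247), with overlapping CPM in the lines, and was called lower in 7 of the 13 settings run. Pank2, its relative, was not called at 0.01 (SE 0.0821, edgeR adjusted p = 0.888). On tags near annotated 5′ ends, Pank2 was called lower at -0.47 (edgeR adjusted p = 1.36e-07). All 7 genes of lipoate synthesis and use fell, where 46.0% of all genes tested were called lower. Their log2 fold changes ran from -0.61 to -4.20. The smallest of these changes, that of Lipt2, was not called without mOPC replicate 1 (-0.35, edgeR adjusted p = 0.109), which left 6 of 7. The 7 genes include Lias, the lipoate synthase, at -0.73 (SE 0.0825), the transferase Lipt1 at -1.22 (SE 0.101), the branched-chain dehydrogenase subunit Dbt at -2.88 (SE 0.0935) and the glycine cleavage protein Gcsh, which carries lipoate, at -4.20 (SE 0.0985).

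For Atraid, the retinoic acid genes were split much as all genes tested were, with 6 of 13 higher and 6 lower beside 44.6% and 46.0%. The receptor Rara was not called (log2 fold change 0.06, SE 0.0875, edgeR adjusted p = 0.506). Rara was called lower on tags near annotated 5′ ends (-0.38, edgeR adjusted p = 4.28e-04) and higher on total tags (0.19, edgeR adjusted p = 0.0278). The receptor Rarb rose by 4.72 (SE 0.170) and the retinoic acid-degrading enzyme Cyp26b1 by 4.66 (SE 0.225), from 10, 7 and 6 tags in mESCs to 213, 250 and 343 in mOPCs. Its relative Cyp26a1 had 30, 12 and 13 tags in mESCs and 1, 0 and 0 in mOPCs, and the retinoic acid-producing enzyme Aldh1a2 had 74, 41 and 36 and then 1, 1 and 2. Crabp1, a retinoic acid-binding protein, had 508, 215 and 272 tags in mESCs and none in the mOPC libraries, which is at least 417-fold lower in CPM when 3 tags over the 3 libraries are taken as the limit. Counting tags near annotated 5′ ends turned Rxrg, a receptor called lower at -1.94, to 0.55 (edgeR adjusted p = 0.0359). With the same tags Stra6, another of the 13 genes, called higher at 1.40, was not called at 0.38 (edgeR adjusted p = 0.144). Slc37a3, whose product partners that of Atraid, rose by 0.42 (SE 0.0915, edgeR adjusted p = 1.8e-05), with 23.8 CPM in mESCs and 34.7 in mOPCs.

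**Figure D5:**
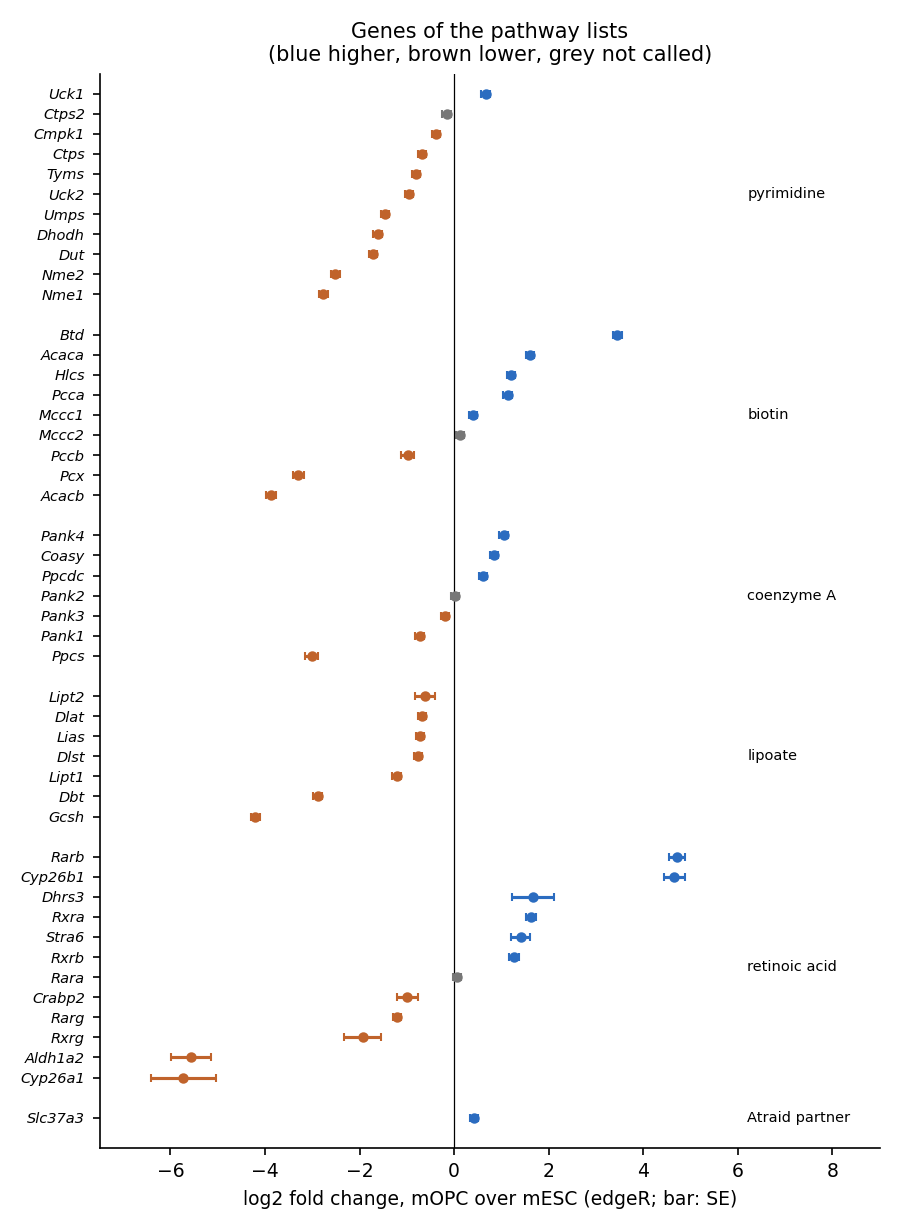
Log2 fold change of mOPCs over mESCs for 47 of the 48 pathway genes, with the SE of the edgeR fit as bars and colours for genes called higher (blue), called lower (brown) or not called (grey). Crabp1, with 0 tags in mOPCs, is left out. The lipoate genes lie to the left of 0, 9 of the 11 pyrimidine genes are called lower, and the biotin, coenzyme A and retinoic acid genes lie on both sides. Of all genes tested, 44.6% were called higher and 46.0% lower.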

How the data were processed

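Nuclear RNA of 3 mESC and 3 mOPC libraries was profiled by CAGE. The deposited values are counts: the authors tallied, for each position and strand, how many tags begin there, and did not scale the tallies. According to the methods of the study, short tags were mapped to mm10 with bowtie, allowing mismatches and keeping unique alignments, and starts were extracted with CAGEr. The submitters' processing notes name CASAVA 1.8 and BWA 0.5.9 instead, and which aligner made the tables was not settled here. Unique mapping leaves out tags that fit several places. The precision of low values is limited by totals between 16657021 and 40928704 tags, tags carry no molecular identifiers, and limits from 3 tags cover counting error only.

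Tags were summed over GENCODE vM21 gene bodies by strand, a tag in overlapping genes counting for each, and scaled to a library total of 1000000 (CPM). Genes were compared with edgeR 4.0.16 (R 4.3.3; TMM, filterByExpr, quasi-likelihood test, Benjamini-Hochberg adjustment over 18290 genes, threshold 0.05), with DESeq2 1.42.0 as the alternative. The fit was tested on simulated data. Ratios of single starts are of mean CPM, and SEs are from log2 values of the 3 libraries of each line. Positions and figures were handled with Python 3.11.15, pandas 2.3.3 and matplotlib 3.10.9. Named are the 3 members, genes in the window, the 3 protein-coding genes on each side, the genes of the pathway lists and the 3 protein-coding genes most like each member outside chromosome 5 from 30000000 to 32000000. Members and lists were chosen with earlier results of these data known. Alternatives were another tool, scaling or filter, tags near 5′ ends, a replicate block, each library left out, other cluster settings, other windows and added tags for the balance, and totals without the top position. The checks of start bases and of TAAATA were added after seeing the data. Interaction data of the study were not used here.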

Additional observations from a re-analysis of the deposited data

How the results depend on the processing

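Slc5a6, Atraid and Cad kept the direction of their difference under every alternative run. The log2 fold change lay between 9.46 and 9.70 for Slc5a6, 5.03 and 5.20 for Atraid and 2.5 and 2.70 for Cad. Values that moved by more than the spread between libraries were those of Atraid, at 5.03 with DESeq2 and with edgeR on its size factors, 5.20 on total tags and 5.17 on tags near annotated 5′ ends against 5.07, and of Cad, at 2.70 on total tags against 2.58. Without the top position of each library, the log2 ratio of mean CPM was 5.28 for Atraid against 5.20. Total tags put the median of all genes at 0.10 on the log2 scale against -0.03. The number of clusters in the window was 191, 122 when joined up to 50 bp and 69 with at least 50 tags. Counting all tags within 500 bp of annotated 5′ ends, the main start held 22.6% of Slc5a6 tags in mESCs and 72.6% in mOPCs, and 44.3% of Atraid tags in mOPCs. With the central 80% taken over those tags, the width of Slc5a6 in mESCs was between 287 and 561 bp, and the gap between the lines closed at Atraid and narrowed at Cad to between 69 and 70 bp in mESCs and between 60 and 68 bp in mOPCs.

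With each library left out in turn, the number of genes called was between 7950 and 8459 higher and 8216 and 8696 lower, the pathway genes between 15 and 16 higher and 26 and 29 lower, and the balance of Slc5a6 and Atraid between -1.61 and -1.42 in mESCs and 2.83 and 2.95 in mOPCs. Libraries of the same number did not deviate together (correlations of 0.0302, 0.0558 and -0.0023 over genes). No pairing by number was seen, although the labels do not say whether the numbers pair the libraries. With a replicate block, 8135 genes were higher and 8378 lower, 16 and 28 pathway genes were called, and the log2 fold changes were 9.58 for Slc5a6, 5.08 for Atraid and 2.59 for Cad. Depth limits the mESC values of the minor starts, some of which rest on 0 or 1 tag in a library.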
